A study of Mus musculus with 8 samples.

Results

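Extracellular ATP and adenosine form a signalling system at the cell surface, and 10 of its genes were followed here in inflamed mouse colon. The 10 were picked by gene symbol from the 18806 genes of the deposited table: the enzyme genes Entpd1, Nt5e and Ada, the adenosine receptor genes Adora2a and Adora2b, and the ATP and nucleotide receptor genes P2rx1, P2rx4, P2rx7, P2ry2 and P2ry6. RNA of colon tissue from 8 mice was sequenced, 1 library per mouse. All 8 mice received DSS (dextran sulfate sodium), which wounds the lining of the colon and brings on colitis. In 4 of them nothing else is stated (the DSS group), and the other 4 also received the gut bacterium Alistipes putredinis (the DSS+AP group). The labels used here give no strain, sex, age, dose or duration, and no mouse without DSS was analysed here, so no level can be set against healthy colon.

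Cells that are damaged or activated release ATP, which acts on neighbouring cells through P2X receptors, which are ion channels opened by ATP, and through P2Y receptors, which are coupled to G proteins. CD39, the product of Entpd1, strips ATP and ADP to AMP, and CD73, the product of Nt5e, turns AMP into adenosine. Adenosine acts on its own G protein-coupled receptors, which dampen many immune cells, until it is taken up into cells or converted to inosine by adenosine deaminase, the product of Ada. In the gut, the system is known for its part in inflammation, in fluid secretion, and in signals to smooth muscle.

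The sequences just before the transcription start are shown for 3 of the genes whose RNA was lower in DSS+AP colon, because they are the windows in which a shared motif could be looked for. They are the 250 bases before each start in RefSeq for GRCm38.p6, which held an entry for 8 of the 10 genes, and Adora2a and P2ry6 were not matched. Entpd1 has 2 listed starts, at chr19:40612116-40612365 and chr19:40659520-40659769 (plus strand). The Nt5e window is chr9:88327359-88327608 (plus strand) and P2ry2 has 2 overlapping windows, chr7:101011999-101012248 and chr7:101012054-101012303 (minus strand), of which the first is printed. All are written 5′ to 3′ along the gene, with matches to a searched motif in capitals.
Entpd1, upstream start: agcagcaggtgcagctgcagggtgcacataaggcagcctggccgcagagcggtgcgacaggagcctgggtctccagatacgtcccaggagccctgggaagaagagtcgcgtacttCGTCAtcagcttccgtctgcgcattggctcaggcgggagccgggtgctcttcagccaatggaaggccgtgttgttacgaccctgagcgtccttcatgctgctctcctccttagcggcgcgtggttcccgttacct
Entpd1, downstream start: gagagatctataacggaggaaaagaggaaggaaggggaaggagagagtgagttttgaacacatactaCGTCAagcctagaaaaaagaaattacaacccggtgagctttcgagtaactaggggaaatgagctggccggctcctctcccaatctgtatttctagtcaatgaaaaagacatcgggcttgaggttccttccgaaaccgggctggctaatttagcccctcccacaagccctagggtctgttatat
Nt5e: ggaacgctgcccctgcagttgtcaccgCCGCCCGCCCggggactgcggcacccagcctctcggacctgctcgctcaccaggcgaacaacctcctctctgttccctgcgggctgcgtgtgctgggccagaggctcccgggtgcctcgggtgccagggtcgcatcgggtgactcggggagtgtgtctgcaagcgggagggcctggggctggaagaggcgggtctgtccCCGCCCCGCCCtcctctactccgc
P2ry2: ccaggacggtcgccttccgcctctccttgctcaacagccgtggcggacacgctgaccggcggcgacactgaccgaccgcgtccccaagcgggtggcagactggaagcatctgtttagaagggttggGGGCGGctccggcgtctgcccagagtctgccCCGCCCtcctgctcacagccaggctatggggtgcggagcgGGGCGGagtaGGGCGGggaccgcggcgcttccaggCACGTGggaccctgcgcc
The motifs, searched on both strands, were ACGTG (the core bound by hypoxia-inducible factors), TGACG (part of the cyclic AMP response element), GGGCGG (the GC box), TATAAA (the TATA box) and TGANTCA (AP-1). ACGTG and TGACG can overlap each other. Each Entpd1 window held 1 TGACG match, read as CGTCA on the strand shown, and 17.8% of all 32851 RefSeq promoter windows of this length held one. Nt5e and the printed P2ry2 window held 4 GC boxes each, the other P2ry2 window held 2, and 32.7% of all windows held at least 1. The printed P2ry2 window also held ACGTG, which its CACGTG gives on both strands, and 16.6% of all windows did, but the other P2ry2 window held 0. No motif of the 5 was found in every window shown. Adora2b, which was not called, had 6 GC boxes, and P2rx4, also not called, had 2 TGACG matches. A match of letters is a description and shows no binding.

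In DSS+AP colon 4 of the 10 genes fell at an edgeR adjusted p under 0.05 (Entpd1, Nt5e, Adora2a and P2ry2), 0 rose and 6 did not pass. All 10 were abundant enough to be tested. Over all 14578 genes tested, 20.4% were lower and 8.84% were higher by the same rule. The share of the 10 was not tested against this background. The median log2 fold change was -0.27 over the 10 genes and 0.02 over all genes tested. Every DSS+AP library lay below every DSS library in 4 of the 10 genes, as in 19.6% of all genes tested (30.3% when either direction is counted), and the groups overlapped in the other 6. Entpd1 alone among the 4 stayed past the threshold whichever library was left out, and the count of lower genes ranged from 1 to 4. It was 1 when the library left out was 1, 3 or 4 of DSS or 1 or 4 of DSS+AP, and 3 when it was 2 or 3 of DSS+AP. CPM below are counts relative to the scaled library total. A change is the log2 ratio of DSS+AP to DSS, given as estimate ± SE with 4 mice in each group.

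**Figure D1:**
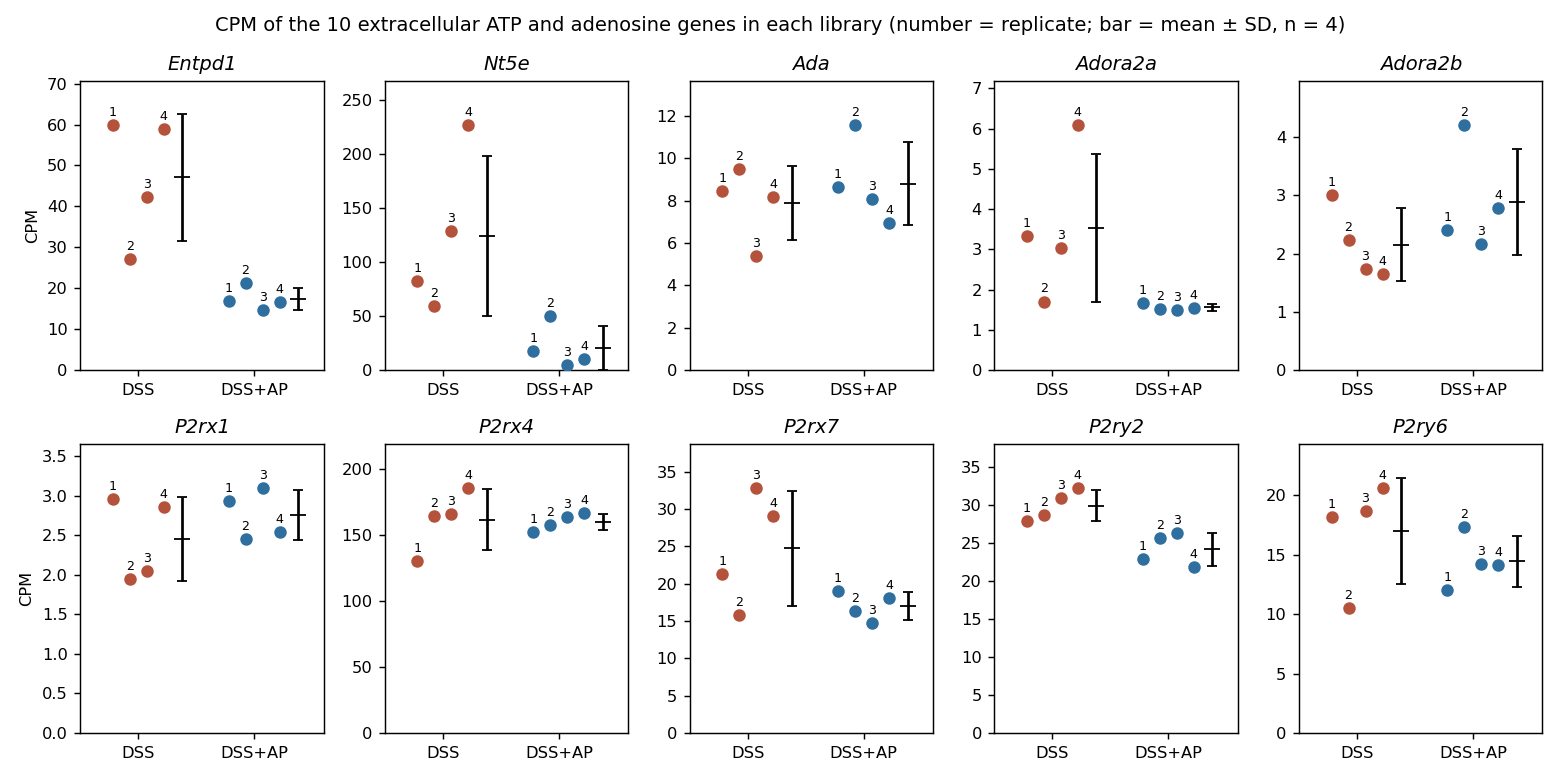
CPM (vertical axes, from 0, one scale per gene) of each of the 10 genes in the 4 DSS and 4 DSS+AP libraries. Points are libraries with their replicate number, and bars are mean ± SD. Entpd1, Nt5e, Adora2a and P2ry2 have every DSS+AP point below every DSS point, and in Nt5e, Adora2a and P2ry2 the gap is narrow.

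Library totals were 16089081 to 17104290 estimated counts, and 3 counts, taken as the floor of detection for counting error, were 0.167 to 0.186 CPM. The colon label was checked on 10 epithelial genes, all of them detected, with a summed level of 17294 to 30529 CPM in DSS and 28431 to 42554 CPM in DSS+AP (4 of 10 higher). Markers of other cells in the tissue were lower in DSS+AP: 10 of 10 macrophage genes (602 to 1366 CPM summed in DSS, 436 to 655 in DSS+AP), 8 of 8 neutrophil genes (62.5 to 349 and 12.2 to 49.6), 8 of 8 B cell genes (15.1 to 118 and 6.14 to 14.7), 8 of 8 endothelial genes (145 to 250.5 and 85.1 to 106), 8 of 8 fibroblast genes (2368 to 5496 and 1272 to 1962), 8 of 8 neuron and glia genes (63.9 to 117 and 13.9 to 28.9) and 9 of 10 smooth muscle genes (2930 to 4641 and 1462 to 2748). Of 8 T cell genes 1 was higher and 1 lower (33.7 to 46.3 and 31.2 to 50.3). Genes of the posterior Hox clusters, which mark position along the gut, summed to 18.7 to 153 CPM in DSS and 9.17 to 34.0 in DSS+AP, with 0 of 4 tested called. The mean log2 CPM of this list was nevertheless lower in DSS+AP, by -1.95 (exact two-sided permutation p = 0.0286, adjusted over 14 lists 0.0444, n = 4 each). No listed marker was at 0 in all libraries. DSS 4 stood apart with 5516 CPM of pancreatic acinar genes, against 41.7 to 62.9 in the other libraries. In bulk tissue, fewer cells of a type and less RNA per cell cannot be told apart. The part of these cell types, of gut position and of DSS 4 in the results below was not tested, except where a value without DSS 4 is given.

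**Figure D2:**
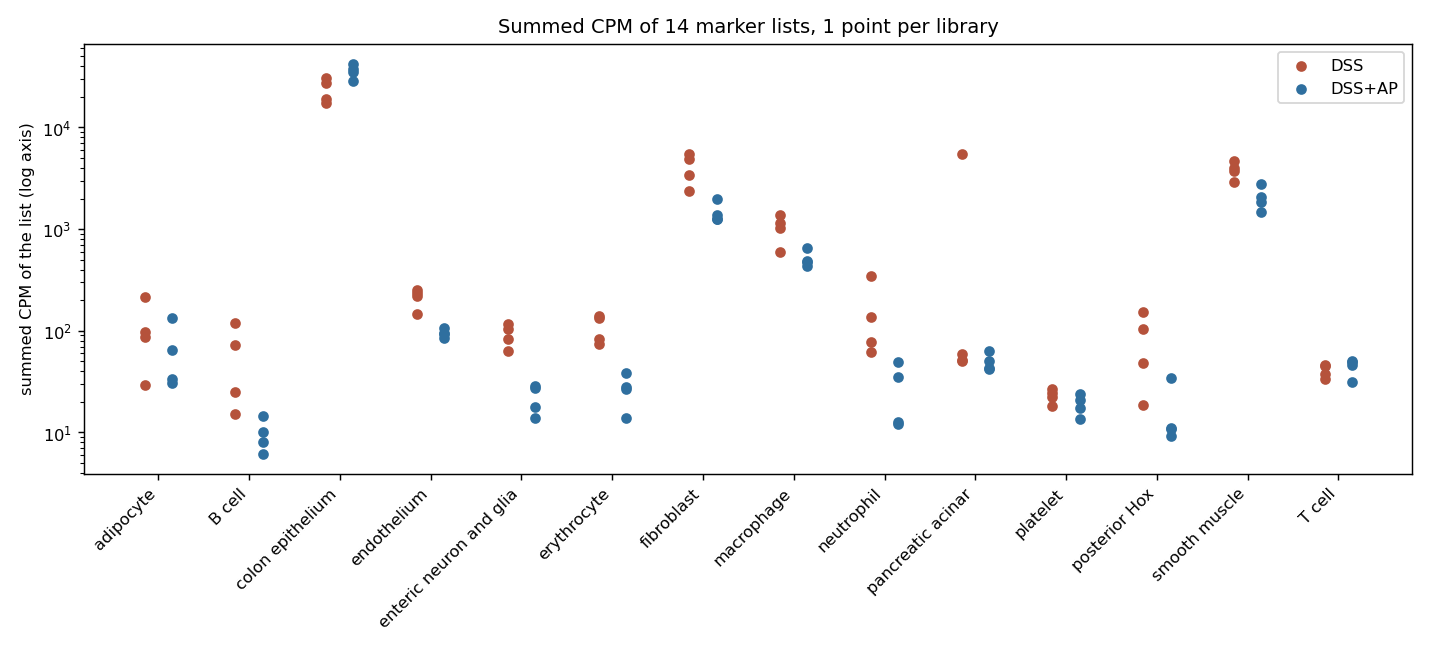
Summed CPM (vertical log axis) of 14 marker lists, with 1 point per library, DSS and DSS+AP side by side. Endothelial, fibroblast and smooth muscle sums are lower in every DSS+AP library than in any DSS library, macrophage and epithelial sums overlap between groups, and DSS 4 is alone at 5516 CPM for acinar genes.

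Entpd1, whose product CD39 takes the first step from ATP towards adenosine (gene 12495; chromosome 19, 40612366 to 40741602, GRCm38.p6), was lower in DSS+AP in every library. It was at 59.8, 27.2, 42.3 and 58.9 CPM in DSS 1 to 4 and at 16.8, 21.2, 14.8 and 16.7 CPM in DSS+AP 1 to 4. The groups did not overlap, DSS 2 was the lowest of its group, and the DSS+AP libraries were close together. Means were 47.1 ± 15.5 and 17.4 ± 2.72 CPM (SD, n = 4 each), 2.71-fold lower in DSS+AP (95% confidence interval of the log2 change -1.99 to -0.89; edgeR adjusted p = 0.00478). Leaving out 1 library moved the log2 change between -1.57 and -1.27, with edgeR adjusted p from 0.000767 to 0.0216. Of the Entpd1 windows printed above, the first ends where the gene begins and the second lies inside the gene, and counts per gene do not separate the starts. CD39 is known from macrophages, B cells, regulatory T cells, endothelium and smooth muscle. The macrophage list differed by -1.04 in mean log2 CPM (exact two-sided permutation p = 0.0571, adjusted over 14 lists 0.0800, n = 4 each) and the endothelial list by -1.14 (exact two-sided permutation p = 0.0286, adjusted 0.0444), 0.0286 being the smallest p that 70 assignments can give. The B cell list differed by -2.36 and the smooth muscle list by -0.91, both with the p of the endothelial list, while the T cell list differed by 0.30 (exact two-sided permutation p = 0.171, adjusted 0.218). The T cell list holds no marker particular to regulatory T cells, so it does not measure them. Of its 8 genes 1 was called higher and 1 lower. Its most abundant gene, Cd4, had means of 18.0 CPM in DSS and 10.1 in DSS+AP, the other direction from the list mean. The part of any of these cells in the fall of Entpd1 was not tested.

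Nt5e, whose product CD73 makes adenosine from AMP (gene 23959; chromosome 9, 88327609 to 88372089), had the largest fall and the widest spread of the 10 genes, and its GC-rich start is shown above. It was at 82.5, 59.1, 129 and 226 CPM in DSS 1 to 4 and at 17.8, 50.4, 4.96 and 10.6 CPM in DSS+AP 1 to 4. The groups did not overlap, but DSS 2 and DSS+AP 2 lay next to each other, and DSS 4 was far above the rest. Means were 124 ± 74.1 and 20.9 ± 20.3 CPM (SD, n = 4 each), a log2 change of -2.56 ± 0.70 (95% confidence interval -4.16 to -0.97; edgeR adjusted p = 0.0265). The standard deviation was 59.6% of the mean in DSS and 97.1% in DSS+AP. It no longer passed without library 1, 3 or 4 of DSS (edgeR adjusted p = 0.0528, 0.0565 and 0.0693) or without library 1 or 4 of DSS+AP (0.0716 and 0.0676). The fall was -2.10 without DSS 4, the library with acinar genes, and -3.47 without DSS+AP 2 (edgeR adjusted p = 0.00725). The posterior Hox list was also lower in DSS+AP. Its most abundant gene, Hoxb13, had means of 52.9 CPM in DSS and 3.53 in DSS+AP, though none of the 4 tested genes was called. By summed CPM of the list, the DSS libraries had the full order of Nt5e (48.6, 18.7, 105 and 153 in DSS 1 to 4). In DSS+AP, library 2 (34.0) and then library 1 led in both, but DSS+AP 3 (10.7) lay above DSS+AP 4 (9.17), the reverse of Nt5e. By mean log2 CPM the order differed also at the top. There DSS 3 (3.74) lay above DSS 4 (3.21) and DSS+AP 1 (1.23) above DSS+AP 2 (0.89). The part of gut position in the fall of Nt5e was not tested.

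Ada encodes adenosine deaminase, which removes adenosine (gene 11486; chromosome 2, 163726571 to 163750239). It was at 8.47, 9.48, 5.39 and 8.16 CPM in DSS 1 to 4 and at 8.64, 11.6, 8.06 and 6.94 CPM in DSS+AP 1 to 4. The groups overlapped throughout, and Ada did not pass (0.16 ± 0.21, 95% confidence interval -0.32 to 0.64; edgeR adjusted p = 0.594). Its counts, 87 to 161 per library in DSS and 112 to 198 in DSS+AP, leave a change of up to 0.64 upward within the interval. On the scale of CPM per kb of transcript, the ratio of Nt5e to Ada was 4.11, 2.63, 10.1 and 11.7 in DSS 1 to 4. In DSS+AP 1 to 4 the ratio was 0.871, 1.84, 0.260 and 0.645. So Nt5e RNA was above Ada RNA in all 4 DSS libraries, and in DSS+AP 2 alone of the other group. Ada is not the only gene of adenosine removal. Adk, from the uptake and breakdown group below, is named outside the rule. It was at 112 ± 25.4 CPM in DSS and 151 ± 27.1 in DSS+AP (0.43 ± 0.18; edgeR adjusted p = 0.104). The ratio of Nt5e to Ada therefore does not measure the balance of making and removing adenosine. That ratio is a description of levels, with no test, and it moves with Nt5e.

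The adenosine receptor genes Adora2a and Adora2b encode the adenosine receptors that raise cyclic AMP, and the product of Adora2a responds at lower adenosine than that of Adora2b. Adora2a (gene 11540; chromosome 10, 75316877 to 75334792) was at 3.34, 1.71, 3.04 and 6.09 CPM in DSS 1 to 4 and at 1.68, 1.52, 1.49 and 1.55 CPM in DSS+AP 1 to 4. The groups were separated by the small distance between DSS 2 and DSS+AP 1, 29 and 28 estimated counts. DSS 4 was the highest library and the DSS+AP libraries nearly equal. At 24 to 28 counts, counting error alone is wider than the spread of these DSS+AP libraries, so that spread is no measure of variation between mice. Means of 3.54 ± 1.84 and 1.56 ± 0.0844 CPM (SD, n = 4 each) gave a log2 change of -1.18 ± 0.35 (95% confidence interval -1.98 to -0.38; edgeR adjusted p = 0.0349). The call was lost without any 1 library except DSS 2 (edgeR adjusted p = 0.0529 to 0.0853), and without DSS 4 the change was -0.79 (0.0761). Without DSS 2 it was -1.35 (0.0073). Neutrophils and endothelium, among other cells, are known to carry this receptor, and their marker lists differed by -2.44 and -1.14 in mean log2 CPM. The macrophage list differed by -1.04 and the T cell list by 0.30 (exact two-sided permutation, adjusted p = 0.0800 and 0.218). The part of these cells in the fall of Adora2a was not tested.

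Adora2b (gene 11541; chromosome 11, 62248984 to 62266452) did not follow Adora2a. It was at 3.01, 2.24, 1.73 and 1.64 CPM in DSS 1 to 4 and at 2.40, 4.20, 2.17 and 2.79 CPM in DSS+AP 1 to 4, with overlap between the groups and DSS+AP 2 the highest. Its log2 change of 0.42 ± 0.28 did not pass (95% confidence interval -0.22 to 1.06; edgeR adjusted p = 0.283). In CPM per kb of transcript, Adora2a exceeded Adora2b in DSS 3 and DSS 4 (ratios of 1.24 and 2.63) but not in DSS 1 and DSS 2 (0.790 and 0.542). It was below Adora2b in all 4 DSS+AP libraries, with ratios of 0.257 to 0.497. The difference between the changes of these 2 genes was not tested.

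Of the ATP-gated channels, P2rx4 was the most abundant and the steadiest. P2rx4, a channel of macrophages and epithelium among other cells (gene 18438; chromosome 5, 122707518 to 122729739), was at 129.9, 164, 166 and 186 CPM in DSS 1 to 4 and at 152, 157, 164 and 166 CPM in DSS+AP 1 to 4. All DSS+AP libraries lay within the range of the DSS libraries. The log2 change was -0.01 ± 0.11 (edgeR adjusted p = 0.941), and the 95% confidence interval of -0.25 to 0.23 bounds a change in either direction. All 10 macrophage markers were lower in the same libraries.

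P2rx7 encodes the channel that opens at high ATP and is known for starting the NLRP3 inflammasome in macrophages (gene 18439; chromosome 5, 122643927 to 122692336, beside P2rx4). It was at 21.3, 15.8, 32.8 and 29.1 CPM in DSS 1 to 4 and at 19.0, 16.3, 14.7 and 18.1 CPM in DSS+AP 1 to 4. Only DSS 2 reached down into the range of the DSS+AP libraries. The log2 change of -0.54 ± 0.22 did not pass (95% confidence interval -1.03 to -0.05; edgeR adjusted p = 0.0886). Without DSS 2 it was -0.64 and passed (edgeR adjusted p = 0.0147). Its change and that of P2rx4 were not tested against each other.

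P2rx1, a channel of smooth muscle, platelets and neutrophils (gene 18436; chromosome 11, 72999056 to 73015200), was rare. It was at 2.95, 1.94, 2.04 and 2.86 CPM in DSS 1 to 4 and at 2.94, 2.45, 3.10 and 2.54 CPM in DSS+AP 1 to 4. The groups overlapped, with a log2 change of 0.17 ± 0.20 (95% confidence interval -0.29 to 0.63; edgeR adjusted p = 0.558). In the same libraries the smooth muscle list differed by -0.91 in mean log2 CPM (exact two-sided permutation p = 0.0286, adjusted 0.0444, n = 4 each) and the neutrophil list by -2.44 (the same p and adjusted p). The platelet list differed by -0.18 (exact two-sided permutation p = 0.457, adjusted 0.533). With 33 to 53 counts per library, the interval leaves room for a change of up to -0.29.

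P2ry2, the receptor for ATP and UTP of epithelium and other cells (gene 18442; chromosome 7, 100996568 to 101012053), showed a small but tight difference. It was at 27.9, 28.6, 30.9 and 32.2 CPM in DSS 1 to 4 and at 22.9, 25.6, 26.3 and 21.7 CPM in DSS+AP 1 to 4. The groups did not overlap, but the lowest DSS library (27.9) lay close above the highest DSS+AP library (26.3). The spread within each group was 6.71% and 8.92% of its mean. Means were 29.9 ± 2.01 and 24.1 ± 2.15 CPM (SD, n = 4 each), 1.24-fold lower in DSS+AP (log2 change -0.31 ± 0.09, 95% confidence interval -0.52 to -0.10; edgeR adjusted p = 0.0362). P2ry2 no longer passed without any 1 of the DSS libraries (edgeR adjusted p = 0.0573, 0.0704, 0.0817 and 0.103 for libraries 1 to 4) or without library 1 or 4 of DSS+AP (0.151 and 0.0960). The epithelial list differed by 0.43 in mean log2 CPM (exact two-sided permutation p = 0.0286, adjusted 0.0444), with 4 of 10 genes called higher. The part of epithelium in the change of P2ry2 was not tested.

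P2ry6, the receptor for UDP (gene 233571; chromosome 7, 100937630 to 100975498), is the neighbour of P2ry2 on chromosome 7. It was at 18.2, 10.5, 18.7 and 20.6 CPM in DSS 1 to 4 and at 12.1, 17.3, 14.3 and 14.1 CPM in DSS+AP 1 to 4. DSS 2 was the lowest of all 8 libraries, so the groups overlapped, and the log2 change of -0.24 ± 0.21 did not pass (95% confidence interval -0.70 to 0.23; edgeR adjusted p = 0.411).

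**Figure D3:**
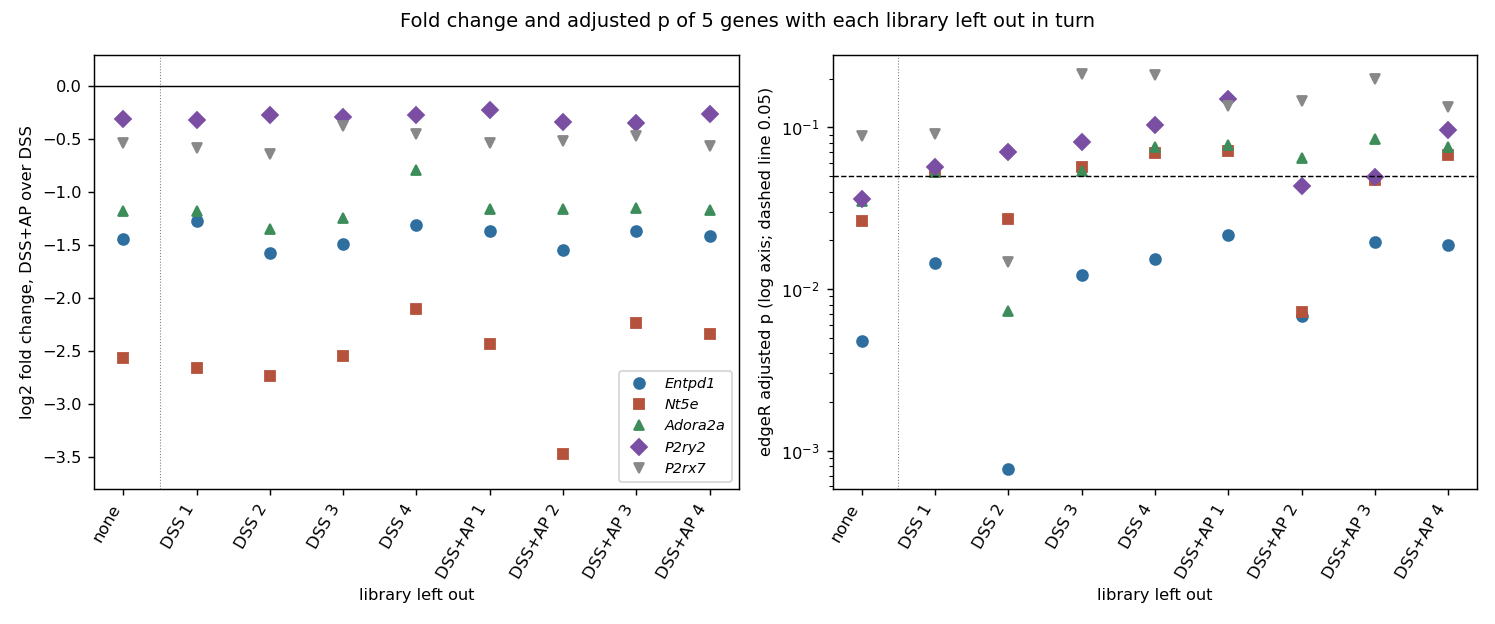
Log2 fold change (left) and edgeR adjusted p on a log axis (right) of Entpd1, Nt5e, Adora2a, P2ry2 and P2rx7 with all libraries (none) and with each library left out. Entpd1 stays under the dashed line at 0.05 throughout, while the other 4 genes cross it. The signs of all 5 stay negative.

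Levels were compared between the 10 genes as CPM per kb of the longest coding transcript. In DSS the order was P2rx4 (59.7), Nt5e (31.1), Entpd1 (11.2), P2ry2 (9.92), P2ry6 (8.74), P2rx7 (5.01), Ada (4.66), Adora2a (1.37), Adora2b (1.17) and P2rx1 (0.986). Neighbours in this order overlapped in their library values, except Nt5e with Entpd1 (lowest 14.8, highest 14.2) and Ada with Adora2a (lowest 3.19, highest 2.35). In DSS+AP the order was P2rx4 (59.2), P2ry2 (8.01), P2ry6 (7.42), Nt5e (5.24), Ada (5.21), Entpd1 (4.11), P2rx7 (3.45), Adora2b (1.57), P2rx1 (1.11) and Adora2a (0.600). There the gaps without overlap were P2rx4 to P2ry2, P2rx7 to Adora2b and P2rx1 to Adora2a. Both ectoenzyme genes stood next after P2rx4 in DSS, and after P2rx4, P2ry2 and P2ry6 in DSS+AP.

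The rest of the pathway, a list of 39 further genes, had 33 that could be tested, of which 11 fell, 2 rose and 20 did not pass, beside 20.4% lower and 8.84% higher over all genes. Their median log2 change was -0.13. The other 6, Slc28a1, Akp3, Alppl2, Panx2, Panx3 and P2rx5, were too low, and are named here after their values were seen. Leaving out 1 library gave 5 (without DSS 4) to 12 lower genes (without DSS 2), with 7 when library 3 of either group was left out and 6 when library 1 or 4 of DSS+AP was. The higher ones numbered 2 to 6, with 6 without DSS 2 and 4 without DSS+AP 2. The 11 genes that fell with all libraries include P2ry10 and Cd38, whose place in the pathway is qualified below.

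**Figure D4:**
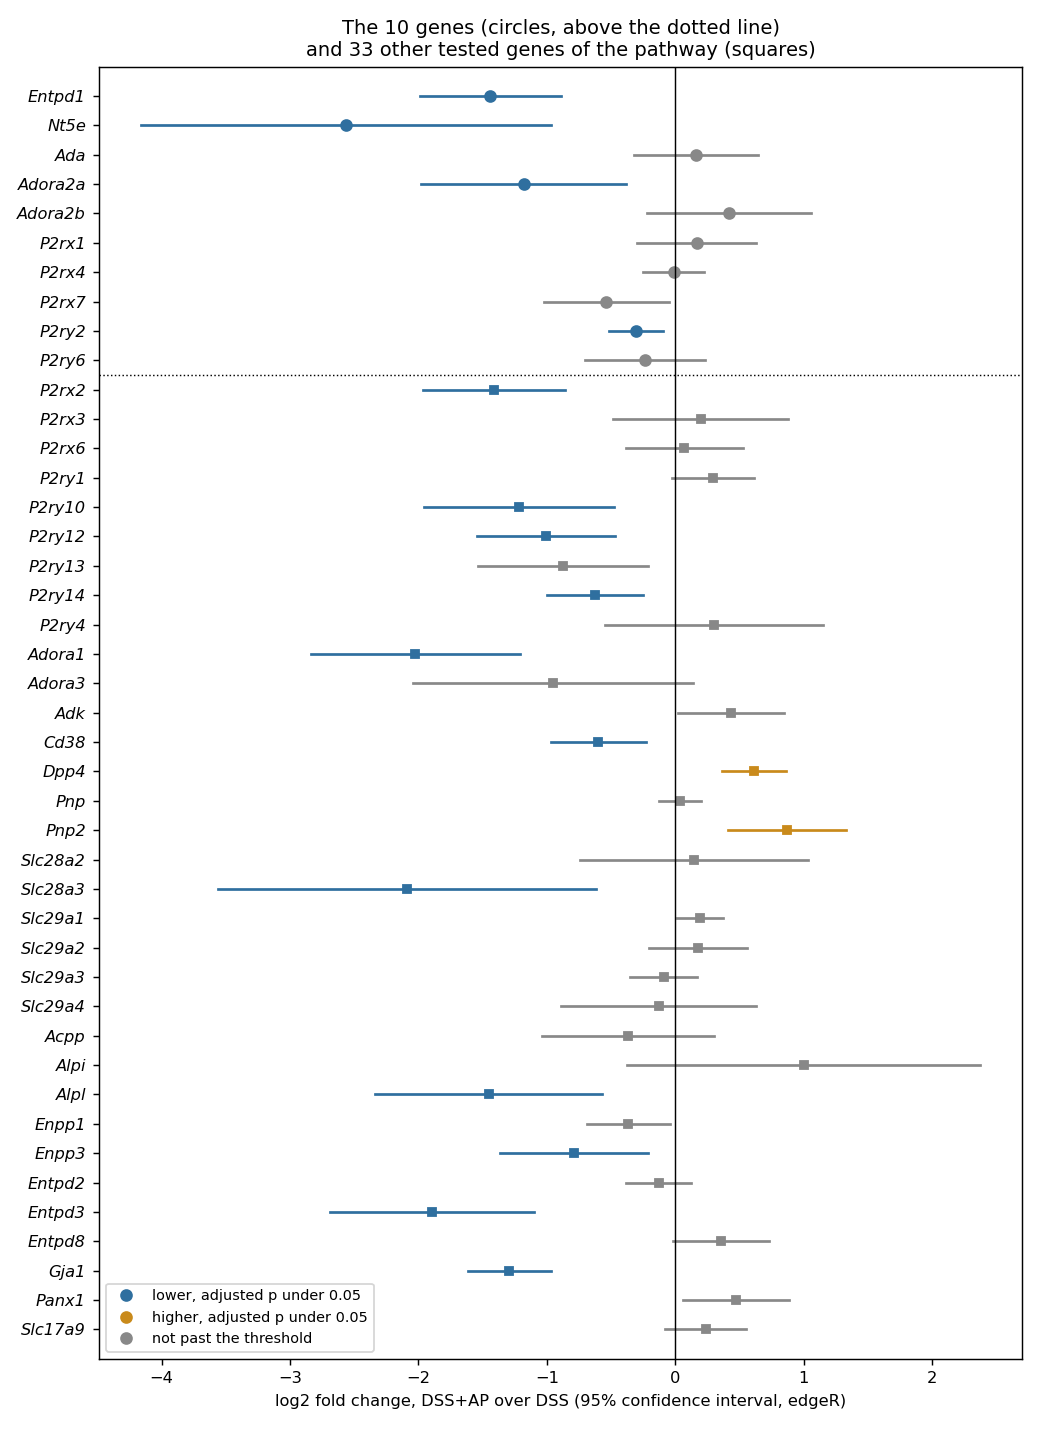
Log2 fold change of DSS+AP over DSS (horizontal axis) with its 95% confidence interval for the 10 genes (circles) and the 33 other tested genes of the pathway (squares). Of the circles 4 are called lower, and of the squares 11 are called lower and 2 higher.

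Over all genes tested 20.4% were lower and 8.84% higher, and no group of the list was tested against these shares. Among genes of ATP release 1 of 3 tested fell. Gja1, the gap junction and hemichannel gene of connexin 43, fell from 102 ± 19.9 to 41.6 ± 4.68 CPM (-1.29 ± 0.14; edgeR adjusted p = 0.0032). Among 8 tested genes of nucleotide hydrolysis 3 fell: the ectonucleotidase gene Entpd3 (-1.89 ± 0.35; edgeR adjusted p = 0.00626), the pyrophosphatase gene Enpp3 (-0.79 ± 0.26) and Alpl, an alkaline phosphatase (-1.45 ± 0.39). Entpd3 fell from 4.99 ± 0.988 to 1.33 ± 0.682 CPM. The calls of Enpp3 and Alpl were lost when certain libraries were left out: Enpp3 without any 1 library except DSS 2 (edgeR adjusted p = 0.0501 to 0.126), and Alpl without library 4 of either group (0.0552 for DSS and 0.0619 for DSS+AP) or DSS+AP 1 (0.0733). Entpd8, the ecto-ATPase gene of colon epithelium, was named outside the rule: it was at 107 ± 23.9 and 137 ± 14.8 CPM (0.36 ± 0.17; edgeR adjusted p = 0.133).

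Of the other receptors, 5 of 11 tested fell and 0 rose, beside 20.4% lower and 8.84% higher over all genes tested. The 5 include P2ry10, which is qualified below. Adora1, the A1 adenosine receptor gene, which lowers cyclic AMP, fell from 14.5 ± 4.81 to 3.54 ± 1.66 CPM (-2.02 ± 0.36; edgeR adjusted p = 0.00551), though 20.1% of its exon bases are shared with Mybph on the other strand and its count is uncertain. P2rx2, a channel gene of enteric neurons among other cells, fell from 4.28 ± 1.27 to 1.61 ± 0.146 CPM (-1.41 ± 0.24; edgeR adjusted p = 0.00509), while 8 of 8 neuron and glia markers were lower, by -1.93 in mean log2 CPM. P2ry10, P2ry12 and P2ry14, receptor genes of leukocytes among other cells, were lower, with log2 changes of -1.22 ± 0.33, -1.01 ± 0.24 and -0.62 ± 0.17 (edgeR adjusted p = 0.0235, 0.0146 and 0.0228). Of these, P2ry10 was listed by its P2Y name and is not an established nucleotide receptor, though the counts above include it. P2ry10 no longer passed without DSS 4 (edgeR adjusted p = 0.0684) or without library 2 or 3 of DSS+AP (0.0507 and 0.0662), and P2ry14 without library 3 or 4 of DSS or library 1 or 4 of DSS+AP (0.0587 to 0.0679).

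Among 11 tested genes listed under adenosine uptake and breakdown 2 rose and 2 fell, beside 8.84% higher and 20.4% lower over all genes tested. Not every gene under this heading acts on adenosine itself: the products of Dpp4 and Cd38, for example, do not take it up or break it down. Dpp4, which encodes the CD26 peptidase that binds adenosine deaminase at the cell surface, rose from 35.4 ± 5.52 to 54.1 ± 2.59 CPM (0.61 ± 0.11; edgeR adjusted p = 0.00577), with no overlap of groups. The purine nucleoside phosphorylase gene Pnp2 rose from 18.7 ± 4.74 to 34.3 ± 5.98 CPM (0.87 ± 0.20; edgeR adjusted p = 0.0137). Pnp2 is a close copy of the adjacent Pnp, and its estimated counts were not whole in any library, so its level is uncertain. Cd38, which encodes an enzyme of NAD breakdown, had the highest CPM of the list and fell from 399.7 ± 64.8 to 264 ± 53.3 CPM (-0.60 ± 0.16; edgeR adjusted p = 0.0243). Slc28a3, a gene for a nucleoside carrier, fell from 6.11 ± 4.89 to 1.42 ± 0.906 CPM (-2.09 ± 0.65; edgeR adjusted p = 0.0400). Cd38 was lost without any 1 library except DSS 2 and DSS+AP 2 (edgeR adjusted p = 0.0572 to 0.0841). Slc28a3 no longer passed without library 3 or 4 of DSS or library 1, 3 or 4 of DSS+AP (0.0754 to 0.114), and its change was -1.43 without DSS 4.

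Genes with the pattern most like that of the 2 members with the smallest p were found by the root mean square difference of mean-centred log2 CPM over the 8 libraries, among 13557 genes. Those nearest to Entpd1 were Il6st, the shared signal receptor of the interleukin 6 family (0.069), Fkbp1b (0.079), Ifi207 (0.092), Plekho2 (0.098) and Msn, which encodes the cytoskeletal linker moesin (0.10). In all, 412 genes lay within 0.25 of Entpd1, so its pattern was shared by many. For Nt5e the nearest were Saa1, an acute-phase protein gene (0.31), Trpv3 (0.43), the membrane mucin gene Muc1 (0.45), Spink1 (0.48) and the peptide transporter gene Slc15a1 (0.49), and 0 genes lay within 0.25. The distance is not scaled to a gene's spread, which was wide for Nt5e, so its 0 and the 412 of Entpd1 are not comparable. Among the 10 genes themselves, Adora2a was the nearest to Entpd1 (0.33), and Entpd1 was the nearest to Nt5e, at 1.11. These distances use the same libraries as the comparison and are a description.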

How the data were processed

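Per the labels' protocols, total RNA of colon was purified with a column kit, and SMARTer chemistry gave the messenger RNA libraries. Aligners HISAT2 2.1.0 and Bowtie2 2.2.5, the quantifier RSEM 1.2.8 and the build GRCm38.p6 appear, without roles or order, in the submitters' processing notes. The authors deposited 1 estimated count per gene in each library, unscaled. No source used here tells whether counting used strand. All 10 genes had whole counts in all 8 libraries, and none shared over 1.99% of its exon bases with another gene (GENCODE M21).

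Rounded counts went through filterByExpr and TMM scaling into edgeR 4.0.16 (R 4.3.3): quasi-likelihood F test with robust estimation, DSS+AP against DSS, no covariates, Benjamini-Hochberg over 14578 genes, threshold 0.05. CPM values rest on TMM-scaled totals of tested genes, with a prior count of 2 on the log2 scale. Tests on single values were exact two-sided permutations over 70 assignments. The edgeR fit, and no other step, was tried on simulated counts. The mice were separate animals picked at random, per the series' design text.

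Named were all 10 genes, every gene of the wider list past the threshold, and the 5 nearest genes in pattern to the 2 members of smallest p (mean log2 CPM of at least 0, predicted genes and RIKEN clones left out). Genes, lists and tests were chosen with earlier results of these data known. Alternatives, 17 in number, were other scaling, filters and estimation, DESeq2 1.42.0, limma-voom (limma 3.58.1), the replicate number as a block, and leaving out each library. Same-numbered libraries correlated in their deviations from the group means at -0.14, -0.45, 0.36 and -0.19, so numbers were not taken to pair mice.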

Additional observations from a re-analysis of the deposited data

How the results depend on the processing

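Entpd1 kept its direction and its call in 17 of 17 alternatives (edgeR, DESeq2 or limma-voom adjusted p of 8.3e-07 to 0.0334). Nt5e passed in 10, Adora2a in 9, P2ry2 in 8 and P2rx7 in 2 of 17. Over the 10 genes, 137 of 170 recomputed values kept direction and side of the threshold, 24 lost the threshold and 2 gained it. In 7 the sign of P2rx4 turned positive: 0.0064 with RLE scaling, 0.062 without a filter, 0.016 with DESeq2, and up to 0.073 with 1 library left out, where its range began at -0.083. The cause was not tested. Lower genes among the 10 numbered 2 without a filter, and 1 to 4 with 1 library left out. In the wider pathway, higher genes numbered 5 with limma-voom, and 2 to 6 with 1 library left out; lower genes then ranged from 5 to 12. Over all genes, higher calls numbered 1288 and lower calls 2974 (30.2% of calls higher). Without scaling factors they were 767 and 3211 (19.3% higher). Higher calls were 1950 without a filter, 2190 with DESeq2 and 2410 with limma-voom. With 1 library left out they ranged from 525 to 2101, and lower calls from 1985 to 3086. With the replicate number as a block, calls over all genes were 582 higher and 1967 lower, those among the 10 genes 1 lower (Entpd1), and those of the wider pathway 1 higher and 6 lower. The block uses degrees of freedom, and not every library correlated best with its own number. The lowest counts, 24 to 28 for Adora2a in DSS+AP, limit its precision.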

Other observations

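DSS 2 was the lowest DSS library in 11 of the 11 further pathway genes that fell, in 3 of the 4 of the 10 main genes that fell (Entpd1, Nt5e and Adora2a), and in 77.5% of all 2974 genes called lower. DSS+AP 2 was the highest of its group in 2 of those 4 main genes, Entpd1 and Nt5e, and in 52.0% of all genes called lower, but in 4 of the 11 further genes (36.4%), where no DSS+AP library was the highest or the lowest in more than 4. Of the 2 libraries, DSS 2 had 602 CPM of summed macrophage markers and DSS+AP 2 had 655 CPM, the only pair across groups in which the DSS library was the lower one for that list.

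P2rx4 and P2rx7 lie beside each other on chromosome 5, and their ratio in CPM per kb of transcript was 11.2, 19.0, 9.21 and 11.7 in DSS 1 to 4 and 14.6, 17.6, 20.4 and 16.8 in DSS+AP 1 to 4. P2ry2 and P2ry6, which neighbour each other on chromosome 7, stood at ratios of 0.988, 1.75, 1.07 and 1.01 in DSS 1 to 4 and of 1.23, 0.953, 1.19 and 0.995 in DSS+AP 1 to 4. In both pairs the ratios of the groups overlapped.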
